A study of Mus musculus with 2 samples.

Results

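The miR-181 family of mouse comprises 6 miRNA genes, Mir181a-1, Mir181a-2, Mir181b-1, Mir181b-2, Mir181c and Mir181d, out of 1174 Mir genes annotated in GENCODE M21. Its reads were those of 19 to 25 nt that matched at least 1 of the 6 annotated hairpins exactly and in the sense direction. They numbered 169174 of 54384974 reads in a table whose name carries the word KO, and 201189 of 62773871 reads in a table whose name carries the word het. The small RNA came from whole testes of C57BL/6 mice at 23 days post partum (dpp), when the first wave of germ cells has passed through meiosis into round spermatids. The labels describe 1 Stambp-ps1+/- and 1 Stambp-ps1-/- sample, and Stambp-ps1 is a pseudogene of Stambp. Both tables are listed under the Stambp-ps1-/- sample, so each is named here by its word, as KO-marked or het-marked, and no genotype was given to either. The labels used here do not state how the mutation was made or how many animals gave RNA. Each table is 1 library, so a difference between them has no replicate check and was not tested. Intervals are exact 95% Clopper-Pearson intervals or, for ratios between tables, exact conditional binomial intervals. They cover counting error only, not variation between animals or libraries. Reads amplified by PCR carry no molecular identifier and may be copies of 1 molecule, so the intervals may be too narrow even for counting error. Intervals that do not overlap between the tables are therefore no test of a difference.

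A miRNA is cut from a hairpin by Drosha and Dicer, and either arm of the hairpin, 5p or 3p, can be loaded into an Argonaute protein. Bases 2 to 8, the seed, lead the pairing with target mRNAs, so the position of the first base fixes which mRNAs are recognised. The miR-181 family is best known from mouse lymphocytes, where miR-181a tunes the sensitivity of the T cell receptor. The mature sequences below, from RefSeq (GRCm38.p6), show which products share a seed, with the seed in capitals.
miR-181a-5p: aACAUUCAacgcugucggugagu
miR-181b-5p: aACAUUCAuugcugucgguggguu
miR-181c-5p: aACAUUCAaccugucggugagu
miR-181d-5p: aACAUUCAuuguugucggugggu
miR-181a-1-3p: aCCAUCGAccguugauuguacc
miR-181a-2-3p: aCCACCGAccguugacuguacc
miR-181c-3p: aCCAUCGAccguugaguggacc
miR-181b-1-3p: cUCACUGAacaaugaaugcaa
miR-181b-2-3p: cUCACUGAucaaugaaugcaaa
miR-181d-3p: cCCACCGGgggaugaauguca
The 4 products of the 5p arm share the seed ACAUUCA, which 0 other mature products of the 1679 in the RefSeq table have. The 6 products of the 3p arm fall into 4 seeds: miR-181a-1-3p and miR-181c-3p share CCAUCGA, the 2 miR-181b products share UCACUGA, and miR-181a-2-3p and miR-181d-3p each have their own. The 5p sequence is the same in both copies of miR-181a and in both copies of miR-181b, so these copies were told apart by their 3p arms. Counted from 1 at the 5′ end, miR-181a-2-3p differs from miR-181a-1-3p by U5C and U16C, and miR-181d-5p differs from miR-181b-5p by C12U.

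The genes lie as pairs on 3 chromosomes. Mir181a-1 (chr1:137966455-137966541, plus strand of GRCm38) and Mir181b-1 (chr1:137966639-137966718) lie in an intron of the noncoding gene Gm4258 on the same strand. In the noncoding A430106G13Rik, also on that strand, Mir181b-1 is exonic and Mir181a-1 partly exonic. Both lie in an intron of Gm26936 on the opposite strand. Mir181a-2 (chr2:38852735-38852810, plus strand) and Mir181b-2 (chr2:38853830-38853918) lie in an intron of Nr6a1 on the opposite strand. Nr6a1 encodes the germ cell nuclear factor, an orphan nuclear receptor. Mir181b-2 also lies in an exon of Gm44144 on the opposite strand. Mir181c (chr8:84178873-84178961, minus strand) and Mir181d (chr8:84178716-84178787) lie in an intron of Nanos3 on the same strand, a gene that keeps primordial germ cells alive. The GENCODE hairpins of both miR-181a copies and of Mir181c show how the arms sit, with the mature 5p and 3p sequences in capitals.
Mir181a-1: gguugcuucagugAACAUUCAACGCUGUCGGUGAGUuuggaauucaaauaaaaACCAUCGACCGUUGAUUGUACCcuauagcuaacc
Mir181a-2: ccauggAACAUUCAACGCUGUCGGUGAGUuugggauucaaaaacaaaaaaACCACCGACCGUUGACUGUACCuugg
Mir181c: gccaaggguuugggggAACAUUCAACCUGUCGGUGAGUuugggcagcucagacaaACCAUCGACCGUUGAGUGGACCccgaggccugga
Over the 6 hairpins, 0 reads of 19 to 25 nt began more than 5 nt from a mature start in either table, so a count of 0 allows loop and flank fragments of up to 3 reads. In reads per 1000000 reads (RPM), that limit was 0.0552 for the KO-marked and 0.0478 for the het-marked table. No family read matched a transcript of a gene beyond the members and the genes overlapping them. Reads of Mir181b-1 do match A430106G13Rik, whose exon holds its hairpin. Reads antisense to a hairpin numbered 0.

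Both tables had the small RNAs of a testis. The 7 germ line miRNAs on the marker list, Mir34c, Mir34b, Mir449a, Mir470, Mir871, Mir741 and Mir880, summed to 22316 RPM in the KO-marked and 20981 RPM in the het-marked table. Liver Mir122 was at 0 reads. Of the 4 genes of the muscle list only Mir206 was at 0, and the list summed to 11.0 and 6.63 RPM. The family took 2.55% of miRNA reads in the KO-marked and 3.13% in the het-marked table.

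The 5p arm of miR-181a made up most of the family in both tables, followed by the 5p arms of c, b and d, in that order. miR-181a-5p had 2275 RPM (2262 to 2288) in the KO-marked and 2468 RPM (2456 to 2481) in the het-marked table. That was 73.1% and 77.0% of the family's reads. miR-181c-5p, from the Nanos3 intron, had 501 RPM (496 to 507) and 469 RPM (464 to 475). miR-181b-5p, which 2 genes can give, had 220 RPM (216 to 224) and 176 RPM (172 to 179). miR-181d-5p was the scarcest 5p product, with 72.8 RPM (70.6 to 75.1) and 56.3 RPM (54.4 to 58.2). No neighbours in this order had overlapping intervals in either table. Mir181c and Mir181d lie side by side on 1 strand, and their 5p reads were far from equal: miR-181c-5p exceeded miR-181d-5p by 6.88-fold in the KO-marked and 8.34-fold in the het-marked table.

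**Figure D1:**
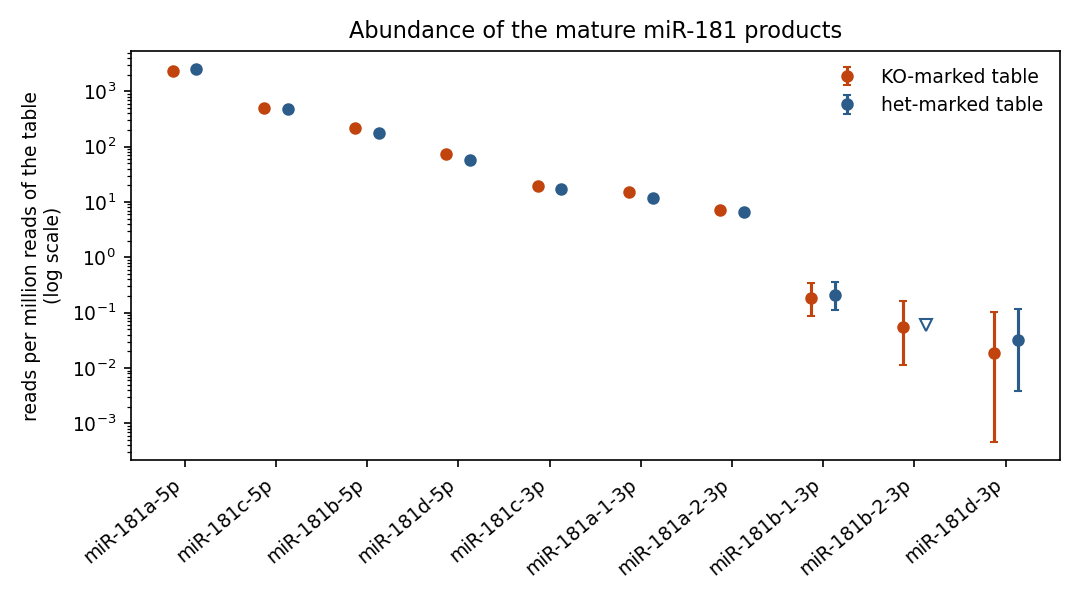
Abundance of the 10 mature products in RPM of each table, on a log scale; points are single libraries, bars are exact 95% counting intervals, and the open triangle is the upper limit of a product with 0 reads. The 5p products lie between 56.3 and 2468 RPM, and the 3p products at or below 19.1 RPM.

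The 3p arms were rare, and how rare differed between the members. They made up 1.34% (1.29 to 1.40) of family reads in the KO-marked and 1.11% (1.06 to 1.16) in the het-marked table. For miR-181c the 3p share was 3.68% (3.46 to 3.90) and 3.48% (3.28 to 3.69). For miR-181a it was 0.976% (0.922 to 1.03) and 0.740% (0.698 to 0.784). The a and c 5p arms had 101 and 26.2 reads for each 3p read in the KO-marked table, and 134 and 27.7 in the het-marked table. miR-181c-3p was the most abundant single 3p product, with 19.1 RPM (18 to 20.3) and 16.9 RPM (15.9 to 17.97). The 2 copies of miR-181a together gave more 3p reads, 1219 and 1155, against 1041 and 1062 for miR-181c-3p. Their shared 5p product, miR-181a-5p, exceeded miR-181c-5p by 4.54-fold and 5.26-fold. The miR-181b genes gave 13 reads of the 3p arm in each table against 11953 and 11026 of the 5p arm, and Mir181d gave 1 and 2 against 3961 and 3533. All these counts are of exact matches. Reads with added 3′ bases, described below, were left out, which lowers the 3p shares of a, b and c. For miR-181b-1-3p such reads numbered 20 in the KO-marked and 23 in the het-marked table, against 10 and 12 exact reads at the main start.

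Both copies of miR-181a gave reads of the 3p arm, with Mir181a-1 ahead. miR-181a-1-3p had 822 reads in the KO-marked and 736 in the het-marked table, and miR-181a-2-3p had 397 and 419. Mir181a-1 thus held 67.4% (64.7 to 70.1) and 63.7% (60.9 to 66.5) of these reads, and the intervals of the tables overlap. For miR-181b, 10 and 13 reads came from the 3p arm of Mir181b-1 and 3 and 0 from that of Mir181b-2. The Mir181b-1 share was 76.9% (46.2 to 94.96) in the KO-marked and 100% (75.3 to 100) in the het-marked table. The KO-marked interval includes equal shares, so that table does not order the copies. The het-marked interval lies above equal shares and puts Mir181b-1 ahead, but on 13 reads only. How the 5p reads divide between the copies cannot be read from these shares, since the arms of a hairpin can be kept in different ratios in each copy.

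The balance within the family differed between the tables: miR-181a-5p made up more of the het-marked table's family reads and b and d more of the KO-marked table's. miR-181a-5p exceeded miR-181b-5p by 10.3-fold (10.2 to 10.6) in the KO-marked and 14.1-fold (13.8 to 14.3) in the het-marked table, and exceeded miR-181d-5p by 31.2-fold (30.3 to 32.3) and 43.9-fold (42.4 to 45.4). These ratios within a table do not depend on the scale. The ratio of b to d, from different chromosomes, was 3.02 (2.91 to 3.13) and 3.12 (3.01 to 3.24), and these intervals overlap. In RPM, KO-marked over het-marked, the ratio was 0.922 (0.915 to 0.929) for miR-181a-5p, 1.07 (1.05 to 1.09) for miR-181c-5p, 1.25 (1.22 to 1.28) for miR-181b-5p and 1.29 (1.24 to 1.36) for miR-181d-5p. The log2 ratios were -0.12, 0.10, 0.32 and 0.37. The scale moves them all alike: scaling to miRNA reads lowered each by 0.26, which put miR-181c-5p at -0.16, and scaling to reads of 19 to 25 nt raised each by 0.19, which put miR-181a-5p at 0.07. On those scales miR-181b-5p lay at 0.07 and 0.51, and miR-181d-5p at 0.12 and 0.56. The family total had a log2 ratio of -0.04, with -0.30 and 0.14 on the other scales, so its direction depends on the scale. In whole testes, fewer cells that carry a miRNA and less of it per cell cannot be told apart.

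The 3p products of miR-181a had higher ratios than its 5p product. miR-181a-1-3p had 15.1 RPM (14.1 to 16.2) and 11.7 RPM (10.9 to 12.6), a ratio of 1.29 (1.17 to 1.43). miR-181a-2-3p had 7.30 RPM (6.599 to 8.05) and 6.68 RPM (6.05 to 7.35), a ratio of 1.09 (0.951 to 1.26). miR-181c-3p had a ratio of 1.13 (1.04 to 1.23), close to the 1.07 of its 5p arm. On the scale of miRNA reads the log2 ratios of these 3p products were 0.11, -0.13 and -0.08, with miR-181a-5p at -0.37. A scale moves both arms alike, so the 3p share of miR-181a given above, 0.976% against 0.740%, does not depend on it, and its intervals do not overlap between the tables.

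Set among all miRNAs, the Mir181a genes and Mir181c lay below the median and the b and d genes above it. Over the 265 annotated miRNAs with at least 200 reads, of which all 6 Mir181 genes were part, the median log2 ratio was 0.28, and 209 lay above 0. A read shared by several hairpins was divided evenly between them here, so the values of the 2 a copies, and of the 2 b copies, are nearly the same measurement. Mir181a-1 and Mir181a-2 lay at -0.11 and -0.12, with 30 and 29 of the 265 miRNAs below them. Mir181c lay at 0.10, with 74 below it, Mir181b-2 at 0.32, Mir181b-1 at 0.33 and Mir181d at 0.37. The median of the 6 members was 0.21. A log2 ratio at or past 1 in size was reached by 1.51% of the miRNAs, 4 of 265, and by 0 of the 6 members. By number of reads the a genes ranked 18 and 19, Mir181c 42, Mir181b-2 88, Mir181b-1 91 and Mir181d 108. The b genes cannot be ordered by these ranks. Of the 181 and 195 reads that matched Mir181b-2 alone, 174 and 190 ended in a U that, as described below, does not identify it. Over these 2 tables, the miRNAs of abundance within a factor of 2 of the family whose log2 ratio was nearest to the family total were Mir741 (-0.02), Mir191 (0.20) and Mir99b (-0.39).

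**Figure D2:**
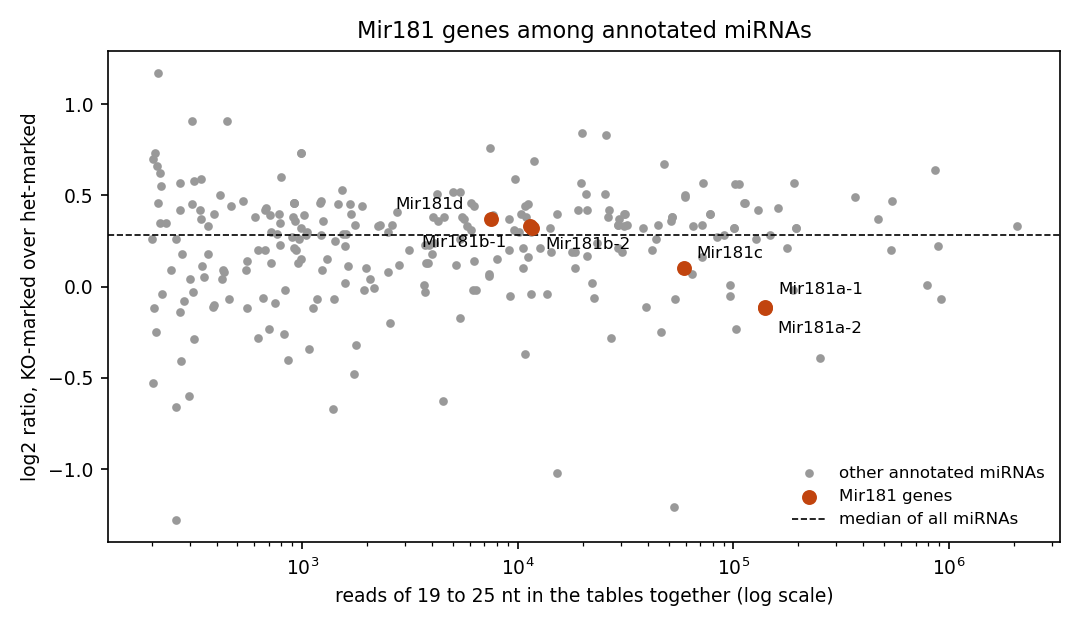
Log2 ratio of RPM, KO-marked over het-marked, against the reads of both tables on a log scale for 265 annotated miRNAs. The Mir181 genes are coloured, the dashed line is the median of 0.28, and both Mir181a genes lie below 0 (above 0 when scaled to reads of 19 to 25 nt) with the b and d genes above the median.

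Blood cells also carry miR-181a. Markers of blood were low in both tables, and their sum was higher in the KO-marked table. The 6 annotated members of the blood and lymphoid list (Mir451a, Mir223, Mir142, Mir150, Mir155 and Mir144) summed to 67.2 RPM in the KO-marked and 45.4 RPM in the het-marked table, none of them at 0, with Mir142 making up 55.1 and 38.5 RPM. Lymphocyte Mir150 had 23 and 32 reads. Endothelial Mir126a had 408 and 340 RPM. Of the neural list, the 3 Mir9 genes and Mir124a-1 summed to 27.5 and 20.1 RPM, and of the muscle list, 3 of 4 members had reads and the sum was 11.0 and 6.63 RPM. Their part in the balance of the family was not tested.

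The first base of the family's reads was nearly fixed. miR-181a-5p began at the RefSeq start in 99.8% of reads in each table (99.7 to 99.8), and the start 1 nt later took 0.218% and 0.223%. The other 5p products had 99.2 to 99.7% of their reads at that start, so the seed shown in capitals above was that of nearly every 5p read. Counted per hairpin, where reads of the other arm count as off the main start, the share was 96.1% for Mir181c and 98.7 to 99.7% for the other members, with a median of 92.3% over all 265 miRNAs. Among the products with at least 200 reads, the start 1 nt before held the highest shares in 2 of the 3p products: miR-181a-2-3p had 4.03% and 3.82% of its reads there, and miR-181c-3p 4.32% and 3.39%. In reads it was most frequent in miR-181c-5p, with 56 and 57.

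The 3′ ends varied, and each product had its own length profile. miR-181d-5p was most often 23 nt, with 49.2% (47.6 to 50.8) of reads in the KO-marked and 50.8% (49.1 to 52.5) in the het-marked table. miR-181b-5p was most often 22 nt, with 42.1% (41.2 to 43.0) and 41.4% (40.5 to 42.3). miR-181c-5p, whose sequence lacks 1 base of miR-181a-5p, was most often 22 nt, with 54.3% (53.7 to 54.9) and 51.8% (51.2 to 52.4). The tables differed for miR-181c-5p, whose 21 nt form took 22.6% (22.1 to 23.1) of KO-marked and 26.3% (25.8 to 26.9) of het-marked reads, and the 24 nt form 2.81% (2.62 to 3.02) and 2.19% (2.03 to 2.37). For miR-181d-5p the 22 nt form took 31.85% (30.4 to 33.3) of KO-marked and 28.8% (27.3 to 30.3) of het-marked reads. For miR-181a-2-3p it took 28.95% (24.4 to 33.8) and 39.05% (34.3 to 44.0), and the 21 nt form 43.7% (38.6 to 48.8) and 34.6% (29.9 to 39.5). miR-181a-5p differed in the other direction from miR-181c-5p, with more short forms in the KO-marked table. Its forms share the seed, in capitals, and differ at the 3′ end.
19 nt: aACAUUCAacgcugucggu
22 nt: aACAUUCAacgcugucggugag
23 nt: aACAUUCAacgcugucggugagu
The 22 nt form took 40.5% (40.2 to 40.8) of miR-181a-5p reads in the KO-marked and 45.2% (44.9 to 45.4) in the het-marked table, and the 23 nt form 40.9% (40.6 to 41.2) and 41.9% (41.7 to 42.1). In RPM they were at 919 against 1113 RPM and 928 against 1032 RPM. The forms of 19, 20 and 21 nt were higher in the KO-marked table instead, with ratios of 1.92 (1.83 to 2.01), 1.31 (1.24 to 1.40) and 1.27 (1.24 to 1.31). Reads of all other miRNAs had ratios of 0.953 at 19 nt, 1.09 at 20 nt, 1.15 at 21 nt, 1.28 at 22 nt and 1.14 at 23 nt. Beside these, the 20 and 21 nt forms of miR-181a-5p were only somewhat higher. Its 19 nt form lay well above and its 22 and 23 nt forms below. All these ratios in RPM move with the scale, as described for the products.

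**Figure D3:**
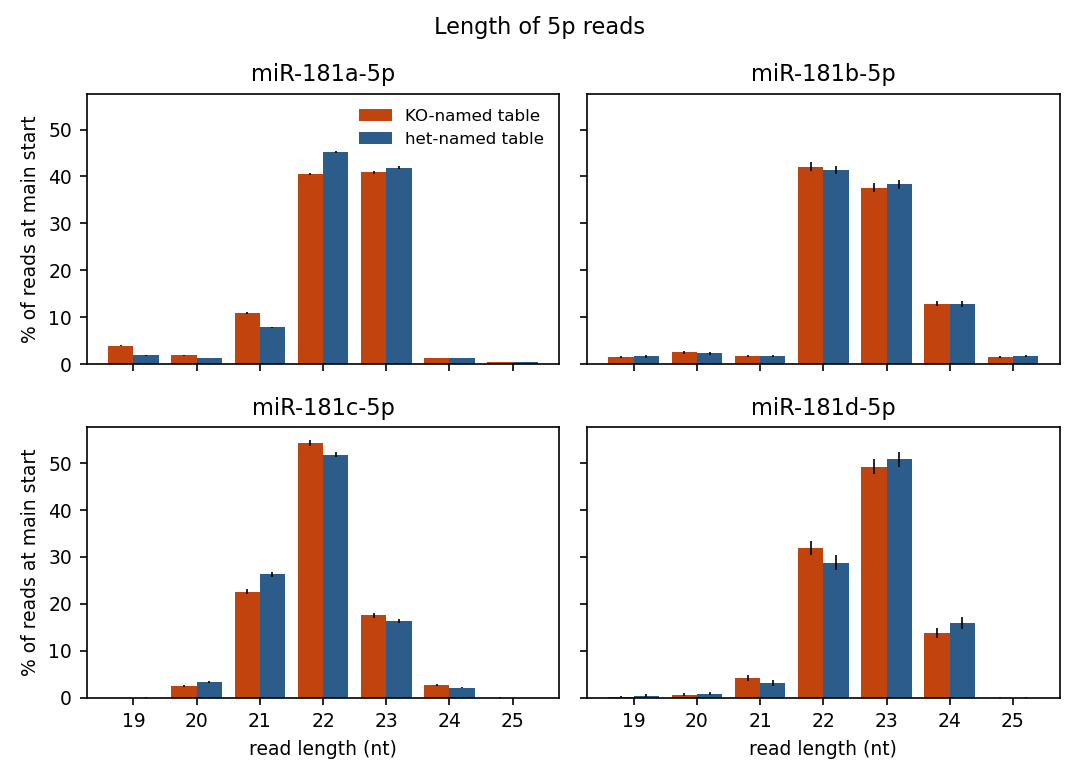
Length of reads at the main start of the 5p products, in percent of those reads, for the KO-marked and het-marked tables; bars start at 0 and error bars are exact 95% counting intervals. miR-181d-5p peaks at 23 nt and miR-181c-5p at 22 nt, and the KO-marked table has a larger share of miR-181a-5p at 19 to 21 nt.

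The 19 nt form of miR-181a-5p, singled out after its values were seen, had 4838 reads in the KO-marked and 2909 in the het-marked table, 89.0 and 46.3 RPM. Its share of miR-181a-5p was 3.92% (3.81 to 4.03) and 1.88% (1.82 to 1.95). This ran against the short reads of the tables as a whole, since 19 nt was the length of 1.19% of KO-marked and 2.50% of het-marked reads. It was not seen for the other 5p products. miR-181b-5p of 19 nt was 1.52% (1.31 to 1.76) and 1.67% (1.43 to 1.92) of its reads, and miR-181c-5p and miR-181d-5p had 7 and 9 such reads in the KO-marked and 12 and 16 in the het-marked table. Among the 85 miRNAs with at least 200 reads of 19 nt, the log2 change of the 19 nt share was 1.03 for Mir181a-2 and 0.99 for Mir181a-1, which share nearly all of these reads and count as 1 product. For the other 83 the median was -0.15, and the highest was Mir99a at 0.26. Changes of that size occurred in the other direction, at -1.25 for Mir3470a and -1.18 for Mir3470b. Mir99a, Mir3470a and Mir3470b are named because they lay at the ends of this order. With 1 library per table it cannot be said whether the 19 nt form would differ between animals of like genotype.

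**Figure D4:**
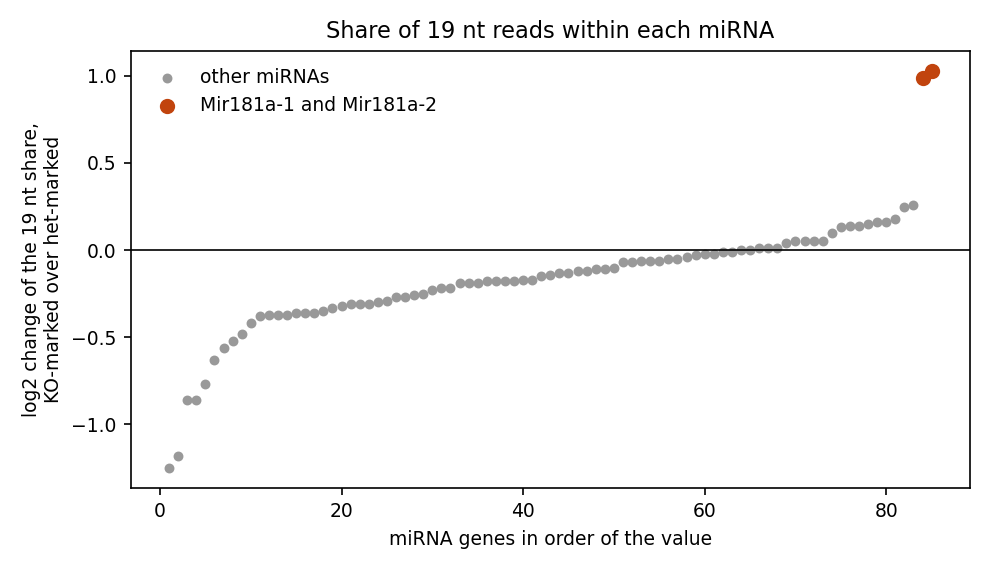
Log2 change of the share of 19 nt reads, KO-marked over het-marked, for 85 miRNA genes with at least 200 such reads, in ascending order. Mir181a-1 and Mir181a-2, which share the same 5p reads, are at 0.99 and 1.03, and the next gene is at 0.26.

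Some reads went on past the hairpin sequence with 1 to 3 untemplated bases, as left by terminal nucleotidyl transferases, which add mostly A or U to miRNAs. Counting reads at the main start with at least 19 matching bases, these were 5.56% (5.46 to 5.67) of the family in the KO-marked and 4.93% (4.83 to 5.02) in the het-marked table, and 89.0% and 87.7% of them had 1 added base. The share differed between the products far more than between the tables. It was lowest for miR-181c-5p, at 2.33% (2.16 to 2.51) and 2.15% (1.99 to 2.32), and was 12.9% (12.3 to 13.4) and 12.8% (12.2 to 13.4) for miR-181b-5p. miR-181d-5p, 1 base different from miR-181b-5p over the bases they share, had 15.0% (13.97 to 16.1) and 17.2% (16.0 to 18.3). A sequencing error in the last base looks the same as 1 added base, and an added base that happens to match the hairpin is not counted.

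The added bases that could be counted differed between arms and members. A U cannot be counted where the hairpin itself goes on with U. That holds after the 22 nt form of the 5p products and of miR-181a-2-3p, but not of miR-181a-1-3p or miR-181c-3p. The hairpins thus fix part of these differences, and neither how often nor which base was added can be compared evenly. In the b and d 5p products the added base was mostly A, in 76.3 to 81.6% of the reads with 1 added base. miR-181c-5p also had mostly A, in 71.0% and 68.2%. miR-181b-5p of 21 nt with an added A had 498 and 505 reads, more than the 208 and 185 reads of the plain 21 nt form. In miR-181a-5p it was U in 57.2% and 50.7%, mostly from 1 sequence, the 20 nt form with an added U (in capitals): aacauucaacgcugucggugU. That sequence had 2590 reads in the KO-marked and 2460 in the het-marked table, against 2393 and 2101 of the plain 20 nt form. The 3p products carried additions more often: 25.9% (23.6 to 28.3) and 25.7% (23.4 to 28.1) for miR-181c-3p and 19.8% (17.4 to 22.4) and 23.1% (20.5 to 25.9) for miR-181a-1-3p, in both cases with U in 81.8 to 84.9% of the reads with 1 added base. miR-181a-2-3p had 29.5% (25.7 to 33.5) and 28.2% (24.5 to 32.1), but with A in 63.9% and 65.3%. The 3p arms of the miR-181a copies thus differed in the added bases counted, with the limit on U given above.

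**Figure D5:**
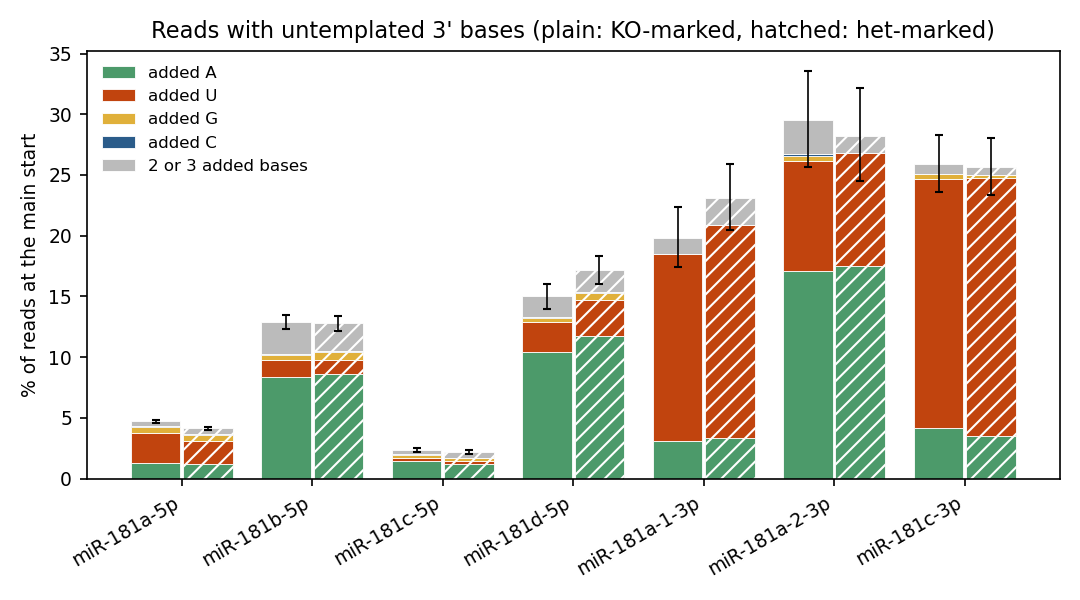
Reads with 1 to 3 untemplated bases at the 3′ end, in percent of all reads at the main start, for the 7 products with at least 200 reads; colours give the added base, plain bars are the KO-marked and hatched bars the het-marked table, and black bars are exact 95% counting intervals. The 3p products reach 19.8 to 29.5%, the 5p products 2.15 to 17.2%.

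Near-identical members could be mistaken for each other, and the reads allow this to be measured. The full 24 nt form of miR-181b-5p had 1534 reads in the KO-marked and 1411 in the het-marked table, and the sequence that differs from it by C12U, which is miR-181d-5p with 1 more base of its hairpin, had 546 and 560. Each of the 50 other single-base changes at positions 2 to 18 had at most 4 and 3 reads, and C12A and C12G together had 3 in each table, so the C12U form stood far above every other single-base change counted. Among miR-181b-5p reads at the main start, those of 25 nt reach the base that differs between the b hairpins, where Mir181b-2 has U and Mir181b-1 has G. All 174 and 190 of them had U. The U there does not identify Mir181b-2, because Mir181d also has G at that place and its 24 nt form was likewise followed by U, in 63 and 69 reads, and by G in 0. That was 11.5% and 12.3% of its 24 nt reads, against 11.3% and 13.5% for miR-181b-5p.

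The genes around the hairpins gave few small RNAs, apart from Nr6a1. Sense reads of 24 to 32 nt, the length of piRNAs, that matched Nr6a1 exons and no gene beyond those overlapping the hairpins numbered 691 in the KO-marked and 636 in the het-marked table, 12.7 and 10.1 RPM, a ratio of 1.25 (1.12 to 1.40). These run opposite to Mir181a-2 and Mir181b-2. Nanos3 had 7 and 3 such reads and Gm4258 0 and 1. The noncoding A430106G13Rik, which holds Mir181b-1 in an exon, had 0 in either table. The genes on the strand of the miRNAs thus had 7 reads or fewer of that size, and reads of their introns were not measured here.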

How the data were processed

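Each deposited table pairs a distinct sequence with a raw, unscaled count, as its whole numbers show. Per the labels' protocols, total RNA was size-selected on a gel for 15 to 40 nt before TruSeq Small RNA library preparation. The tables hold reads of 18 to 32 nt. No source used here names the tools for trimming or alignment.

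Reads were matched with 0 mismatches, sense, to GENCODE M21 hairpins (GRCm38), and family reads and reads of overlapping genes were searched in all annotated transcripts. A genome sequence was not used. A read belonged to a mature product if it began within 5 nt of its RefSeq start. All 6 members matched RefSeq by symbol. Each read counted once in the family and products, and by an even share per hairpin in the table of all miRNAs, where at least 200 reads were needed. RPM is per 1000000 reads of a table of any length, and log2 ratios have 0.5 reads added. Intervals (95%) came from scipy 1.17.1 in Python 3.11.15, with pandas 2.3.3, numpy 2.4.6, Biopython 1.88 and matplotlib 3.10.9. The ratios and their intervals were tested on simulated data with counting error alone. Alternatives were other scalings, lengths, distinct sequences, read minimums and added 3′ bases, of which those for the a to b ratio and the 19 nt share were chosen after seeing the data. The named genes were the members, genes overlapping them, miRNAs of the same seed, the 3 nearest in ratio, and marker lists. Members and lists were chosen with earlier results of these data known.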

Additional observations from a re-analysis of the deposited data

Results flagged for a closer look

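Sense reads of 24 to 32 nt over Nr6a1, which the study's labels do not mention and the miRNA counts do not use, were counted. They numbered 691 in the KO-marked and 636 in the het-marked table. Both lie above the fixed limit of 3 reads set for a count of 0. Nanos3, the host of Mir181c and Mir181d, had 7 such reads in the KO-marked table, also above that limit, and 3 in the het-marked table, which is at it. With 1 library per table, no sample could be compared with others of its group.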

How the results depend on the processing

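Results kept their side under reads of 18 to 32 nt, where the family total stayed at a log2 ratio of -0.04. The same held for reads matching no gene beyond the members and the genes overlapping them. The scale decided the direction of the family total: it was -0.30 scaled to miRNA reads and 0.14 scaled to reads of 19 to 25 nt, and -0.07 with reads of 21 to 24 nt and -0.03 with 1 to 3 added bases allowed. Of the 7 products with at least 200 reads, 6 were higher in the KO-marked table in RPM, and 7 scaled to reads of 19 to 25 nt. Among them the interval of miR-181a-2-3p in RPM (0.951 to 1.26) includes 1. Over all miRNAs with at least 200 reads, 209 of 265 were higher in RPM. Scaled to miRNA reads 3 products were higher, and miR-181c-5p (-0.16), miR-181c-3p (-0.08) and miR-181a-2-3p (-0.13) reversed. miR-181a-5p reversed to 0.07 scaled to reads of 19 to 25 nt. Distinct sequences in place of reads gave 0.12 for the family, 0.04 for miR-181a-5p, -0.05 for miR-181c-5p, -0.01 for miR-181d-5p and -0.03 for miR-181a-1-3p. Few distinct sequences exist per product, so shares of them mean little: the 3p share became 36.8% in the KO-marked and 31.6% in the het-marked table, the share of Mir181a-1 47.4% and 55.6%, that of Mir181c against Mir181d 90.0% and 88.9%, the main start share of miR-181a-5p 38.9% and 36.8%, and its 22 nt share 14.3% in both. With reads of 21 to 24 nt the 3p share was 1.27% and 1.01%, the share of Mir181c 100% in both, and the 22 nt share 43.3% and 46.9%. The share of reads with added bases was 5.37% and 4.75% when 20 matching bases were required. The ratio of miR-181a-5p to miR-181b-5p was 9.48 and 12.8 with added bases allowed, and 14.4 in the het-marked table with reads of 21 to 24 nt. The 19 nt share of miR-181a-5p was 3.74% and 1.80% with such reads in the total. At or past a log2 ratio of 1 in size were 181 of 732 miRNAs with no minimum beyond 1 read and 2 of 179 with at least 1000 reads, against 4 of 265. Depth limits the 3p arms of b and d most, with 13 exact reads or fewer.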
